A study of Mus musculus with 22 samples.

Results

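The 4 mouse libraries titled young RCAM were compared with the 4 titled as macrophages of the renal capsule, called capsule macrophages below. Both come from the sheath around the kidney. These 8 of the 22 libraries of the series were chosen by their titles alone, and the deposited read counts per gene were compared between them. The labels do not spell out the abbreviation RCAM, and they record the young RCAM libraries as whole tissue, while the design text of the series says that capsules were either sequenced whole or first sorted by flow cytometry for macrophages. Both groups carry the tissue label renal capsule and no treatment. The labels leave out genotype, strain, sex and how many animals or capsules went into a library, and for the 2 groups an age is given only for young RCAM, as young. Nothing says that replicates came from separate animals, so p-values measure the spread between libraries, which may be technical. The other libraries are 4 of aged RCAM, 4 of kidney macrophages and 6 of whole capsule, 3 from young and 3 from aged mice. The labels name no batch or sequencing date. Since each preparation forms a titled set of its own, a difference between the cells and a difference between the sets cannot be told apart.

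The renal capsule is the thin sheath of fibroblasts, collagen, vessels and fat that encloses the kidney. Macrophages that live in such sheaths depend on the receptor CSF1R, and many carry LYVE1, FOLR2, TIMD4, CD163 and the mannose receptor MRC1, which serve the uptake of dying cells, haemoglobin complexes and matrix fragments. Macrophages taken from tissue by digestion and sorting are known to switch on immediate early genes and heat shock genes within the time of the procedure, and sorted cells can carry RNA of fibroblasts, blood cells or other leukocytes.

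Depth was similar in both groups, 39320398 to 53396998 counts in capsule macrophages and 49848308 to 54421764 in young RCAM, with 18749 to 19029 and 18321 to 19133 genes detected. Levels are given as counts per 1000000 (CPM) after scaling of library composition, and summed levels of gene lists as CPM of the raw totals. The summed level of 20 pan-macrophage markers was 46107 to 49032 CPM in young RCAM and 42423 to 46584 CPM in capsule macrophages, against 2591 to 5142 CPM in the young whole capsules. Adipocyte markers summed to 96.97 to 207 CPM in young RCAM against 27574 to 59317 CPM in the young whole capsules, and fibroblast and matrix markers to 940.2 to 1247 against 17346 to 28805 CPM. On these markers the young RCAM libraries lay with the libraries labelled as macrophages and far from the whole tissue named in their label. One marker of the list, Itgam, was near 0 in both groups, with means of 0.406 CPM in capsule macrophages and 0.866 CPM in young RCAM. Some genes of other lists, among them B2m, Irf8, Myd88 and Ccl2, had 0 counts over all 8 libraries, and Gapdh had 2402. Whether such values reflect the cells or the counting of reads was not tested. Counts of list members below cover only the genes tested.

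**Figure D1:**
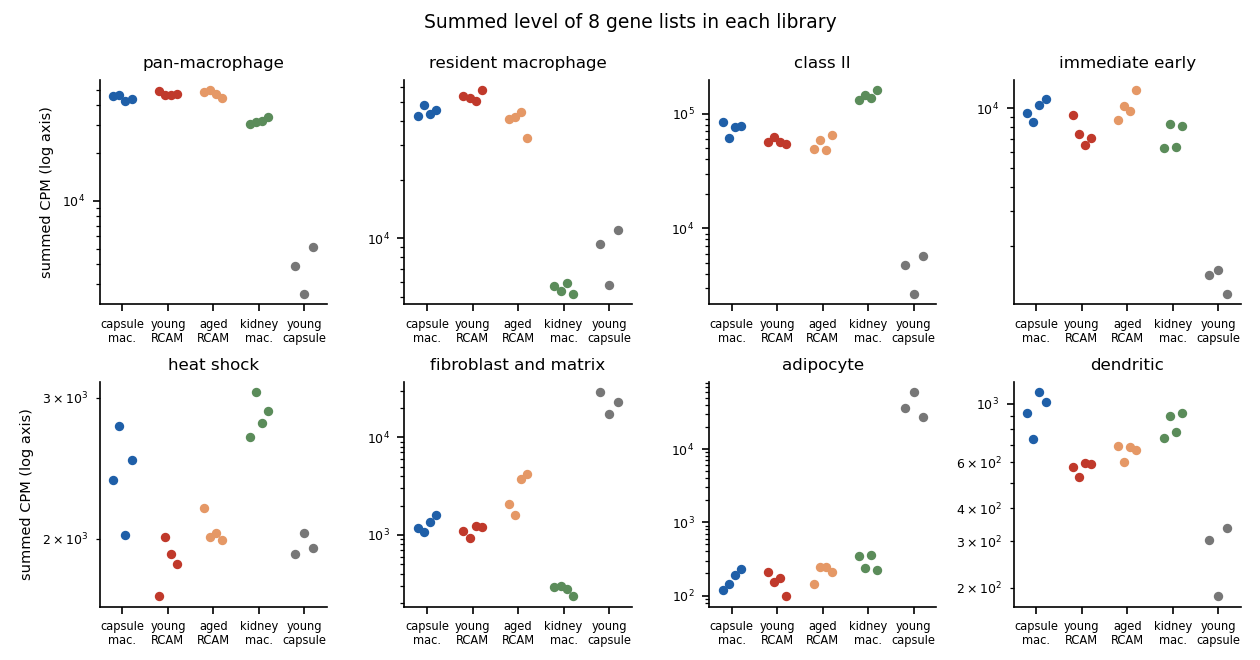
Summed CPM (log axis) of the members of 8 gene lists in each library of 5 groups; each point is 1 library. Young RCAM and capsule macrophages lie close together on the pan-macrophage, fibroblast and adipocyte markers and far from the young whole capsules, and the dendritic markers of the 4 young RCAM libraries (526.9 to 597.5 CPM) lie below those of the 4 capsule macrophage libraries (734.9 to 1104 CPM).

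The 2 preparations were alike across the transcriptome, with a broad layer of small differences. Across 16701 genes, the correlation of log2 CPM between a young RCAM and a capsule macrophage library was 0.979 to 0.984, against 0.985 to 0.988 within capsule macrophages, 0.988 to 0.991 within young RCAM and 0.898 to 0.916 between capsule and kidney macrophages (genes are not independent replicates). Of 15090 genes tested with edgeR's quasi-likelihood test, 2030 (13.5%) differed at a Benjamini-Hochberg adjusted p under 0.05, and these are called changed below. Of them 1216 (8.06% of all tested) were higher and 814 (5.39%) lower in young RCAM. With upper-quartile scaling, which moved the median log2 fold change of all genes from -0.02 to -0.08, the split turned to 958 higher and 1190 lower. Only 269 of the called genes differed by 2-fold or more, and a test against a 2-fold difference (edgeR's glmTreat) called 0 genes higher and 12 (0.0795%) lower; at an unadjusted p under 0.05 it gave 62 higher and 165 lower, and with aged RCAM and kidney macrophages added to the fit (all 4 groups in 1 fit) 4 and 16 adjusted calls.

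For 5498 genes (36.4%) the 95% interval of the fold change lay within 1.5-fold in either direction, and for 9519 (63.1%) within 2-fold. Both statements held for some genes, since 360 called genes also lay within 1.5-fold. The 4 libraries of one group all lay above the 4 of the other for 3032 genes (20.1%), of which 1619 (10.7%) were higher and 1413 (9.36%) lower in young RCAM.

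**Figure D2:**
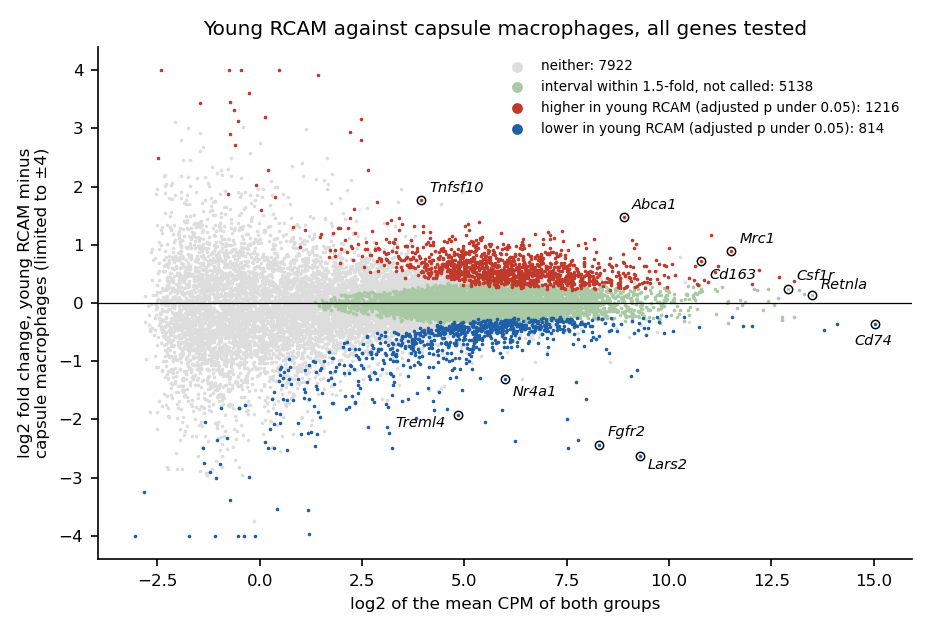
Log2 fold change of young RCAM minus capsule macrophages (vertical axis, limited to ±4) against the log2 of the mean CPM of both groups (horizontal axis) for 15090 genes, with the 1216 genes called higher in red, the 814 called lower in blue and genes whose 95% interval lies within 1.5-fold but that were not called in green. Most called genes differ by less than 2-fold, Abca1 and Tnfsf10 lead the higher side, and Lars2 and Fgfr2 the lower side.

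Most genes that define macrophages were close in level, and a few differed. Of the 20 pan-macrophage markers tested, 16 had an interval within 1.5-fold, against 36.4% of all genes. The called share was 30%, above the 13.5% of all genes, with 3 higher (Mrc1, Mertk and Cd163) and 3 lower. The lower count was 1 without capsule macrophages 1 or young RCAM 2, 3 or 4. Csf1r, the receptor for the macrophage growth factor, read 6776, 7197, 6492 and 7703 CPM in capsule macrophages and 9386, 7471, 8063 and 8532 CPM in young RCAM. The groups overlapped, and the log2 fold change was 0.25 ± 0.08, edgeR adjusted p = 0.0718 (young RCAM minus capsule macrophages ± SE, 4 libraries a group, here and below), with a 95% interval of 0.07 to 0.43. Without young RCAM 2 it was called (edgeR adjusted p = 0.044). Adgre1, which encodes the macrophage surface protein F4/80, read 1654, 1639, 1644 and 1722 CPM against 2207, 1765, 1952 and 1761 CPM (0.21 ± 0.08, edgeR adjusted p = 0.115), with the groups just apart. C1qb, a chain of the complement starter C1q, read 6801, 6378, 5404 and 5757 against 6470, 5787, 5414 and 6142 CPM, with overlapping groups and an interval of -0.22 to 0.16. Lyz2, the phagocyte lysozyme, had an interval of -0.06 to 0.36. Spi1, the transcription factor PU.1, was called lower by a small step (-0.31 ± 0.07, edgeR adjusted p = 0.0168). That call was lost without young RCAM 3 (edgeR adjusted p = 0.0501) and under a correction for transcript GC content and length, where its log2 fold change was 0.0088, edgeR adjusted p = 0.954.

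Among the 12 most abundant genes within 1.5-fold were the class II genes Cd74, H2-Aa and H2-Eb1, the class I gene H2-D1, the protease Ctsb, the selenium carrier Selenop, the actin-binding Tmsb4x, the membrane protein Itm2b and Retnla, a secreted product of alternatively activated macrophages. Retnla read 10750, 11820, 11620 and 9964 CPM in capsule macrophages and 10470, 15470, 9672 and 12710 CPM in young RCAM, with a 95% interval of -0.16 to 0.42. In aged RCAM its log2 fold change over the same capsule macrophages was -1.17 (edgeR adjusted p = 0.000296). The comparisons of young and of aged RCAM share the capsule macrophage libraries, here and below, and aged against young RCAM tested directly (4.8% of all genes called, 3.43% higher and 1.38% lower) gave -1.30, edgeR adjusted p = 0.0022.

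Markers of resident macrophages leaned to young RCAM. Of 27 members tested, 9 were called higher and 1 lower, against 8.06% and 5.39% of all genes. The median log2 fold change was 0.28, against -0.02 over all genes. Mrc1, the mannose receptor, which lies at chr2:14229392-14332057 (GRCm38, here and below), read 1779, 2169, 1780 and 2475 CPM in capsule macrophages and 4263, 3305, 3785 and 3853 CPM in young RCAM. No library of one group reached the other, and the log2 fold change was 0.89 ± 0.12, edgeR adjusted p = 0.00155. Cd163, the scavenger receptor for haemoglobin bound to haptoglobin, read 1181, 1565, 1297 and 1285 CPM against 2412, 2043, 1965 and 2408 CPM (0.73 ± 0.10, edgeR adjusted p = 0.00203), again without overlap. Colec12, a collectin that binds microbial sugars and oxidised lipoprotein, was higher (0.87 ± 0.16, edgeR adjusted p = 0.00746), as was Siglec1, the sialoadhesin of tissue macrophages (0.62 ± 0.12, edgeR adjusted p = 0.00772).

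The 4 genes named last kept their calls without each library in turn and under the GC and length correction. Lyve1, Folr2 and Timd4, the markers most used for such cells, were not called. The hyaluronan receptor gene Lyve1 read 1207, 1443, 917 and 1129 CPM in capsule macrophages and 1807, 1419, 1241 and 1538 CPM in young RCAM, with overlapping groups (0.35 ± 0.14, edgeR adjusted p = 0.134). Folr2, a folate receptor, differed by 0.24 ± 0.10, edgeR adjusted p = 0.144, and Timd4, the phosphatidylserine receptor of long-lived resident macrophages, by 0.39 ± 0.12, edgeR adjusted p = 0.054. Leaving out capsule macrophages 2 brought Lyve1 (edgeR adjusted p = 0.0491) and Timd4 (0.0211) to a call, and for Timd4 so did leaving out young RCAM 2 (0.0438). Cx3cr1, the fractalkine receptor typical of macrophages inside the kidney, read 358, 242, 301 and 388 CPM in capsule macrophages and 375, 214, 379.8 and 222 CPM in young RCAM and was not called (-0.11 ± 0.21, edgeR adjusted p = 0.778, interval -0.59 to 0.36). The count of higher members was 6 without capsule macrophages 3, the lowest over the fits that leave out 1 library, and 8 with the GC and length correction.

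Genes for the uptake of particles and dying cells were the list with the largest share called. Of 14 tested members 8 were higher and 0 lower, against 8.06% and 5.39% of all genes, with a median of 0.39. Mrc1, Cd163, Gas6 and Marco, all called higher, belong both to this list and to that of resident macrophages, so the lists are not independent. The calls of Gas6 and Marco were lost in several fits that leave out 1 library. Pros1, protein S, which bridges dying cells to receptors of the TAM family, read 354, 436, 378 and 380.2 CPM in capsule macrophages and 841, 684, 678 and 795 CPM in young RCAM. Every young RCAM library lay above every capsule macrophage library (0.95 ± 0.09, edgeR adjusted p = 0.000503). Mertk, the TAM receptor of macrophages, read 99.02, 139, 104 and 116 CPM against 198, 189, 196 and 216 CPM (0.80 ± 0.11, edgeR adjusted p = 0.00161). Both genes kept their calls without each library and under the GC and length correction (0.80, edgeR adjusted p = 0.0028, and 0.69, edgeR adjusted p = 0.00456), and 5 members were called without capsule macrophages 3 or without young RCAM 4. In aged RCAM against the same capsule macrophages, the log2 fold change was 0.56 (edgeR adjusted p = 0.0098) for Pros1 and 0.66 (edgeR adjusted p = 0.0114) for Mertk, while that of Cd163 was -0.03 (edgeR adjusted p = 0.916), and aged against young RCAM gave -0.76, edgeR adjusted p = 0.0128 for Cd163.

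Abca1 and Slc40a1, exporters of cholesterol and of iron, were higher, while the lists they belong to were mixed. Abca1, the transporter that loads cholesterol onto apolipoprotein A-I (chr4:53030787-53159895), read 179, 315, 258 and 254 CPM in capsule macrophages and 724, 624, 696 and 753 CPM in young RCAM. The lowest young RCAM library was well above the highest capsule macrophage library, and the log2 fold change was 1.47 ± 0.15, edgeR adjusted p = 0.000511. After the GC and length correction it was 1.27, edgeR adjusted p = 0.00059, and in aged RCAM 1.46 (edgeR adjusted p = 0.000573). Mylip, which encodes the ligase IDOL that removes the LDL receptor, rose (1.01 ± 0.13, edgeR adjusted p = 0.00124). Both are targets of the sterol-sensing nuclear receptors LXR. Of 8 listed LXR targets 3 were higher and 1 lower, against 8.06% and 5.39% of all genes. Over the fits that leave out 1 library 2 or 3 were higher and 0 or 1 lower.

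The third, Abcg1, another cholesterol transporter, was higher (0.39 ± 0.10, edgeR adjusted p = 0.0292). That call was lost without capsule macrophages 1, 2 or 3 or young RCAM 2, 3 or 4 (edgeR adjusted p = 0.0501 to 0.0837), and under upper-quartile scaling (edgeR adjusted p = 0.0623). Apoe, the apolipoprotein of macrophages, read 20370, 22020, 17320 and 19660 CPM in capsule macrophages and 17980, 13770, 13490 and 16320 CPM in young RCAM and was called lower (-0.37 ± 0.10, edgeR adjusted p = 0.0418) with overlapping groups. Its call was lost without capsule macrophages 1, 2 or 4 or young RCAM 2, 3 or 4 (edgeR adjusted p = 0.0687 to 0.109), and its sign was the opposite under the GC and length correction (0.017, edgeR adjusted p = 0.952).

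Of 11 genes of iron and haem handling 2 were higher (Slc40a1 and Cd163) and 2 lower, against 8.06% and 5.39% of all genes. Without capsule macrophages 2 there were 4 higher and 2 lower. Slc40a1, ferroportin, the only known exporter of iron from cells, read 357, 362, 405 and 422 CPM in capsule macrophages and 831, 636, 723 and 925 CPM in young RCAM. The groups did not overlap (1.01 ± 0.11, edgeR adjusted p = 0.000895), and in aged RCAM the log2 fold change was 1.40 (edgeR adjusted p = 0.000192). The ferritin chains that store iron moved the other way by small steps, Ftl1 (-0.37 ± 0.07, edgeR adjusted p = 0.00708) and Fth1 (-0.24 ± 0.06, edgeR adjusted p = 0.0251). Neither kept its call under the GC and length correction, where they were at 0.024, edgeR adjusted p = 0.905 for Ftl1 and -0.18, edgeR adjusted p = 0.11 for Fth1, and Fth1 lost it without capsule macrophages 1 or young RCAM 2, 3 or 4 (edgeR adjusted p = 0.0516 to 0.0652).

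**Figure D3:**
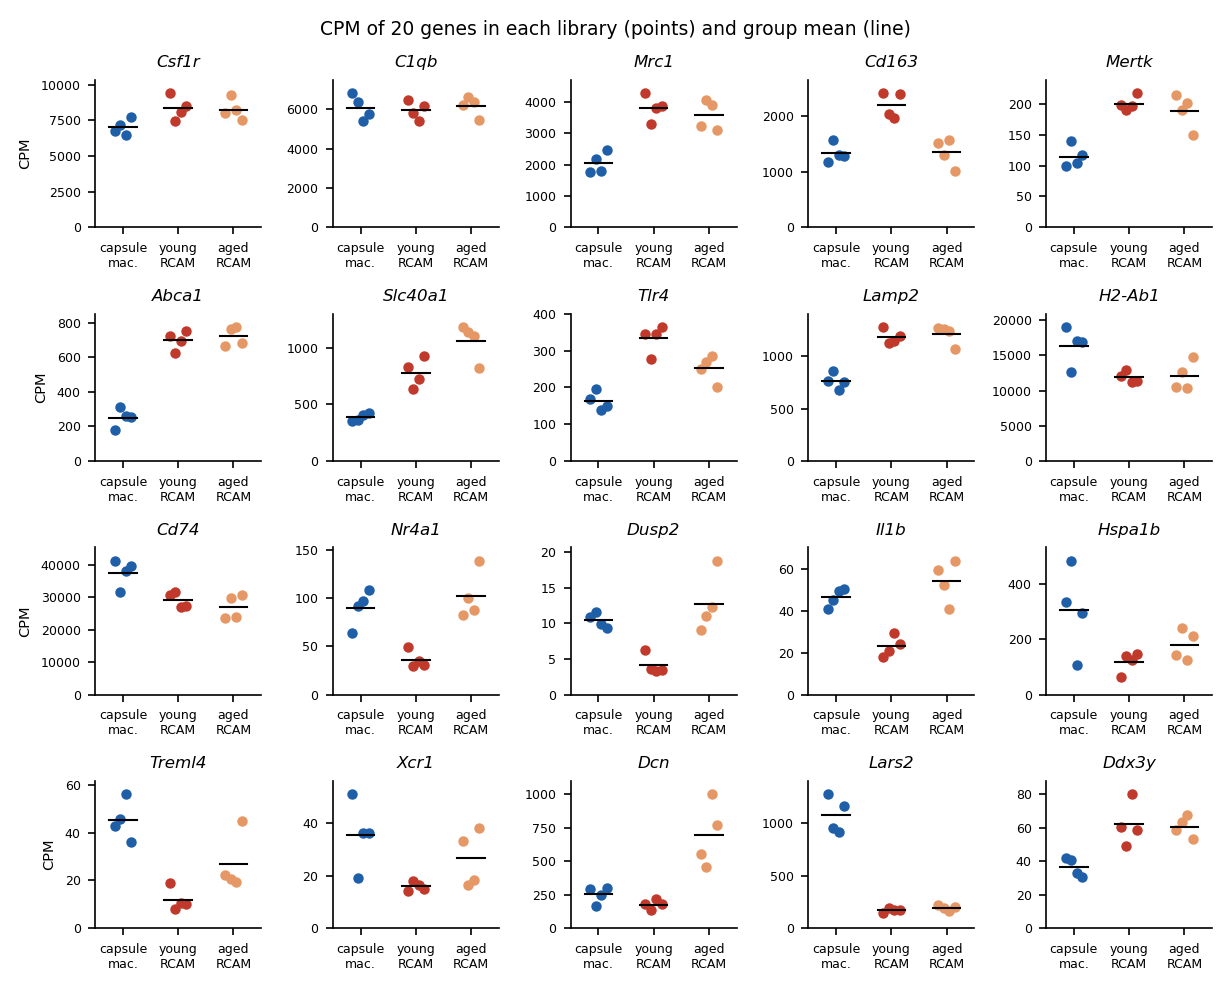
CPM of 20 genes in each library (points) with the group mean (line) for capsule macrophages, young RCAM and, for context, aged RCAM, whose libraries were scaled together with all 16 RCAM, capsule and kidney macrophage libraries. Abca1, Slc40a1, Mrc1 and Tlr4 are higher in young RCAM without overlap, Nr4a1, Dusp2 and Il1b are lower in young RCAM only, and Lars2 is low in both RCAM groups.

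Of 20 lysosomal genes tested, 6 were higher and 2 lower, against 8.06% and 5.39% of all genes, with a median of 0.20. Lamp2, a membrane protein of lysosomes, read 762, 856, 677 and 755 CPM in capsule macrophages and 1279, 1124, 1148 and 1195 CPM in young RCAM (0.64 ± 0.08, edgeR adjusted p = 0.00135). Grn, progranulin, rose (0.33 ± 0.07, edgeR adjusted p = 0.0117), and so did Psap, the precursor of the saposins that help break down sphingolipids (0.45 ± 0.09, edgeR adjusted p = 0.0121). Ctsb, cathepsin B, was not called (0.22 ± 0.08, edgeR adjusted p = 0.106), except without capsule macrophages 2 (edgeR adjusted p = 0.0485). Over the fits that leave out 1 library, 4 to 7 members were higher and 1 or 2 lower. Under the GC and length correction 9 were higher and 1 lower.

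Receptors for microbial products were higher in part. Of 12 tested Toll-like receptors and their partners, 4 were higher and 1 lower, against 8.06% and 5.39% of all genes. Tlr4, the receptor for bacterial lipopolysaccharide, read 168, 197, 140.1 and 150.1 CPM in capsule macrophages and 345, 278, 345 and 364 CPM in young RCAM. The groups did not overlap (1.03 ± 0.12, edgeR adjusted p = 0.000982). Tlr8, an endosomal member, rose (0.85 ± 0.13, edgeR adjusted p = 0.00315), and so did Tlr7, the receptor for single-stranded RNA (0.61 ± 0.13, edgeR adjusted p = 0.0128). Tlr4 and Tlr8 kept their calls under the GC and length correction, and Tlr7 did not (0.39, edgeR adjusted p = 0.0784). Tlr5, the flagellin receptor, was called (0.56 ± 0.14, edgeR adjusted p = 0.0276) but not without capsule macrophages 1 or 3 or young RCAM 1, 3 or 4 (edgeR adjusted p = 0.0504 to 0.0765), nor under the GC and length correction (0.47, edgeR adjusted p = 0.0663). Of 14 complement genes 4 were called higher and 0 lower, against the same shares of all genes. Without young RCAM 1, 1 complement gene was called higher.

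RNA levels of class II antigen presentation genes were close in both preparations and slightly lower in young RCAM before the GC and length correction. Of 12 tested genes of the class II pathway 3 were called lower and 0 higher, against 5.39% and 8.06% of all genes. For 8 of the 12 the interval lay within 1.5-fold, against 36.4% of all genes. Under the GC and length correction 1 of the 12 was called lower and 1 higher. Cd74, the invariant chain that escorts class II molecules, read 41290, 31530, 38080 and 39660 CPM in capsule macrophages and 30780, 31490, 27090 and 27300 CPM in young RCAM. The groups touched without overlapping, and the difference was -0.37 ± 0.09, edgeR adjusted p = 0.0226. H2-Ab1, the beta chain of the class II molecule I-A, read 19030, 12700, 17030 and 16870 CPM against 12060, 12900, 11280 and 11380 CPM (-0.46 ± 0.11, edgeR adjusted p = 0.0204), with capsule macrophages 2 inside the range of young RCAM. The alpha chain gene H2-Aa read 10780, 7157, 9288 and 9337 CPM against 7704, 8120, 7816 and 7442 CPM and was not called (-0.23 ± 0.11, edgeR adjusted p = 0.177).

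Capsule macrophages 2 stood apart in this list. The summed class II level was 84799, 61051, 77116 and 77890 CPM in capsule macrophages and 56806, 62527, 56862 and 54131 CPM in young RCAM. Without that library 6 class II genes were lower, among them H2-Aa (edgeR adjusted p = 0.0138) and H2-Eb1 (0.0211), whereas in each fit without capsule macrophages 1, 3 or 4, or young RCAM 3 or 4, a single gene (1) was. The class II gene that kept its call without each library was H2-Ob, a chain of the class II regulator H2-O, known from B cells and dendritic cells, which read 49.02, 34.4, 61.1 and 50.5 CPM in capsule macrophages and 27.7, 26.8, 28.9 and 32.3 CPM in young RCAM (-0.75 ± 0.16, edgeR adjusted p = 0.0121). Cd74 lost its call without capsule macrophages 1, 3 or 4 or young RCAM 3 or 4 (edgeR adjusted p = 0.0505 to 0.064) and H2-Ab1 without capsule macrophages 1, 3 or 4 or young RCAM 3 or 4 (edgeR adjusted p = 0.0509 to 0.0603), and under the GC and length correction their log2 fold changes were -0.06, edgeR adjusted p = 0.65, and -0.11, edgeR adjusted p = 0.476. Ciita, the master regulator of class II genes, read 16.1, 13.8, 20.6 and 16.4 CPM in capsule macrophages and 14.8, 17.3, 13.2 and 15.4 CPM in young RCAM (-0.14 ± 0.15, edgeR adjusted p = 0.59). Its interval, -0.47 to 0.19, includes no difference and also differences of the size called for Cd74.

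Class I and interferon-induced genes held a few rises, where 8.06% of all genes were higher and 5.39% lower. Of 13 class I pathway genes 2 were higher and 0 lower (2 lower without capsule macrophages 2, and 5 higher under the GC and length correction), with Erap1, which trims peptides for class I molecules, at 70.1, 84.2, 76.2 and 79.6 CPM in capsule macrophages and 112, 123, 132 and 114 CPM in young RCAM (0.63 ± 0.09, edgeR adjusted p = 0.00165). H2-K1, a class I heavy chain, was higher (0.33 ± 0.09, edgeR adjusted p = 0.0328). This call was lost without capsule macrophages 2, 3 or 4 or young RCAM 1, 2 or 4 (edgeR adjusted p = 0.0544 to 0.0798) and under upper-quartile scaling (edgeR adjusted p = 0.0779), while under the GC and length correction it was 0.53, edgeR adjusted p = 0.00392. Of 34 interferon-induced genes 4 (11.8%) were called higher, near the 8.06% of all genes, and 0 lower. The higher count was 2 without capsule macrophages 1 or 3 or young RCAM 1 or 3, and 7 with DESeq2. Iigp1, an immunity-related GTPase, rose (0.91 ± 0.17, edgeR adjusted p = 0.00721), as did Gbp3, a guanylate-binding protein (0.55 ± 0.11, edgeR adjusted p = 0.0103), and both kept their calls without each library and under the GC and length correction. In aged RCAM their log2 fold changes over the same capsule macrophages were 0.16 (edgeR adjusted p = 0.517) and -0.12 (edgeR adjusted p = 0.483), and aged against young RCAM gave -0.75, edgeR adjusted p = 0.0256, and -0.67, edgeR adjusted p = 0.00276.

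**Figure D4:**
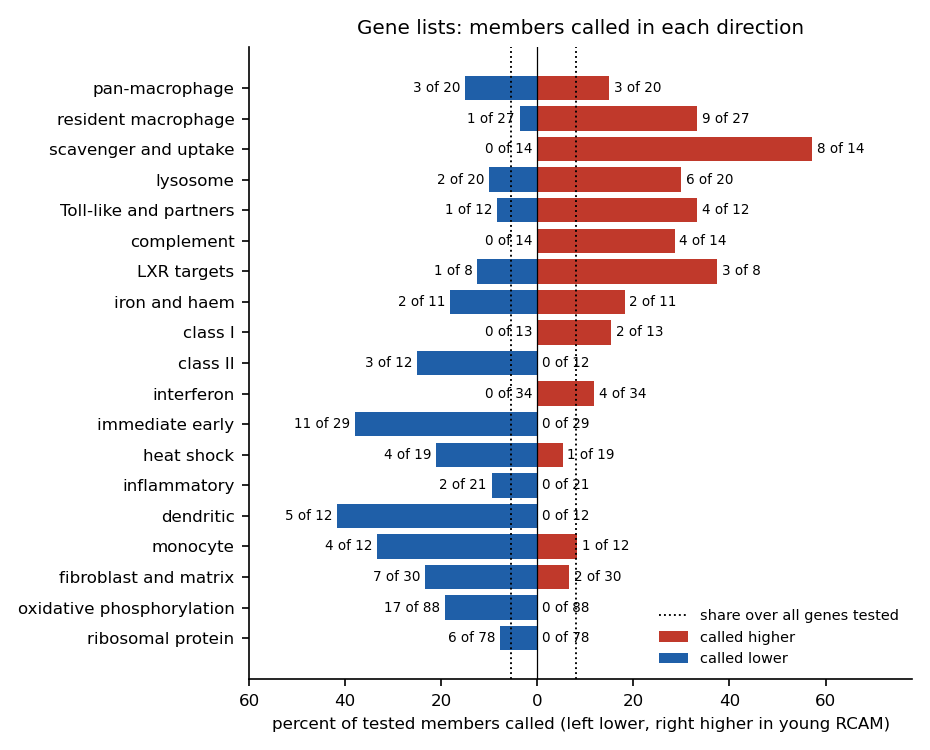
Percent of the tested members of 19 gene lists called lower (left, blue) or higher (right, red) in young RCAM at an edgeR adjusted p under 0.05, with the number called of the number tested; the dotted lines mark the share over all genes tested (5.39% lower, 8.06% higher). Scavenger and uptake genes (8 of 14) lie farthest to the right, and dendritic (5 of 12) and immediate early genes (11 of 29) farthest to the left. The dotted lines are not matched for level, and 21.8% of genes were called higher in the highest of 5 bins of level.

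Immediate early genes, which cells switch on within minutes of a stimulus or of stress, were lower in part. Of 29 tested, 11 fell and 0 rose, against 5.39% and 8.06% of all genes, and the median log2 fold change was -0.48. Their promoters are shown here for the 4 of 26 listed genes with a RefSeq promoter whose 250 bases before the start site hold the cAMP response element TGACGTCA, which binds the stimulus-responsive factor CREB. It is its own reverse complement, so both strands are covered. The same letters occur in 508 of 32851 RefSeq promoters (1.55%). For each gene 100 bases are given 5′ to 3′ on the gene's strand, with the element in capitals. A match is a description of the letters, not of binding. They lie at chr1:134079268-134079367, minus strand (Btg2), chr7:45526269-45526368, minus strand (Ppp1r15a), chr15:79347420-79347519, plus strand (Maff) and chr17:26508562-26508661, minus strand (Dusp1) of GRCm38.p6.
Btg2: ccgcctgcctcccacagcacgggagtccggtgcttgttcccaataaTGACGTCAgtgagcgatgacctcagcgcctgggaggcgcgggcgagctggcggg
Ppp1r15a: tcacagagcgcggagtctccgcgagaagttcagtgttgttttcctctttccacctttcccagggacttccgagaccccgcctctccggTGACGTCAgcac
Maff: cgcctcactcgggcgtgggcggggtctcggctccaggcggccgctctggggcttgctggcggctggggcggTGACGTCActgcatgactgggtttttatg
Dusp1: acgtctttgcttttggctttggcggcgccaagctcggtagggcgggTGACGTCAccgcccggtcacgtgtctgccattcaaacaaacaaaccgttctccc

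Of these 4 genes, named for the element and not by the size of their change, 3 were called lower. Btg2, an antiproliferative gene, read 793, 719.9, 904 and 894 CPM in capsule macrophages and 662, 587, 601 and 596 CPM in young RCAM (-0.44 ± 0.09, edgeR adjusted p = 0.00928), without overlap. Ppp1r15a, which encodes GADD34, a phosphatase subunit that restores translation after stress, fell (-0.69 ± 0.14, edgeR adjusted p = 0.0127). Both kept their calls without each library and under the GC and length correction. Maff, a small MAF transcription factor, was at 2.21, 1.57, 2.68 and 3.37 CPM against 0.919, 1.34, 0.744 and 0.759 CPM (-1.38 ± 0.36, edgeR adjusted p = 0.029); the call was lost without capsule macrophages 1, 3 or 4 or young RCAM 1, 3 or 4 (edgeR adjusted p = 0.0519 to 0.0818) and under the GC and length correction (-1.10, edgeR adjusted p = 0.0823). Dusp1, a MAP kinase phosphatase, missed the threshold (-0.50 ± 0.15, edgeR adjusted p = 0.059) and passed it without capsule macrophages 2 or young RCAM 1 (edgeR adjusted p = 0.00754 to 0.0497).

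Nr4a1, an orphan nuclear receptor induced in activated leukocytes (chr15:101254269-101274795), read 64.2, 91.4, 96.5 and 109 CPM in capsule macrophages and 48.9, 29.8, 35.4 and 31.1 CPM in young RCAM. The highest young RCAM library lay below the lowest capsule macrophage library (-1.31 ± 0.19, edgeR adjusted p = 0.0022). Dusp2, another MAP kinase phosphatase, read 10.8, 11.6, 9.85 and 9.34 CPM against 6.3, 3.64, 3.32 and 3.5 CPM (-1.31 ± 0.23, edgeR adjusted p = 0.0056). Gadd45b, a stress-induced gene, read 39.7, 39.2, 37.7 and 37.6 CPM against 18.9, 24.5, 16.1 and 20.3 CPM (-0.95 ± 0.13, edgeR adjusted p = 0.00161). These 3 genes kept their calls without each library and under the GC and length correction. Jund, a partner of FOS in the AP-1 complex, fell (-0.88 ± 0.10, edgeR adjusted p = 0.000993) and kept its call without each library, but not under the GC and length correction (-0.31, edgeR adjusted p = 0.108).

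The best known members did not differ beyond the spread. Fos read 1545, 1276, 1757 and 1803 CPM in capsule macrophages and 1825, 1245, 940.4 and 1088 CPM in young RCAM (-0.32 ± 0.19, edgeR adjusted p = 0.298), and Egr1, a zinc finger transcription factor, 804, 616, 957 and 1156 against 1198, 778, 608 and 672 CPM (-0.12 ± 0.23, edgeR adjusted p = 0.787). In both genes young RCAM 1 was the highest library of the 8, and without it Fos was called lower (edgeR adjusted p = 0.0366). The summed level of the list, which Fos, Egr1 and other abundant members dominate, was 9468, 8535, 10398 and 11051 CPM in capsule macrophages and 9170, 7417, 6480 and 7031 CPM in young RCAM, with young RCAM 1 inside the range of the capsule macrophages. Leaving out 1 library gave 8 to 13 members lower, and the GC and length correction 7.

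Few members of the list differed between aged RCAM and capsule macrophages. Of 29 members 1 was higher and 3 lower than in the same capsule macrophages, where 9.63% and 6.25% of all 15212 genes tested were. Nr4a1 read 82.03, 100, 87.2 and 139 CPM in aged RCAM and its log2 fold change was 0.12 (edgeR adjusted p = 0.72), that of Dusp2 was 0.24 (edgeR adjusted p = 0.503) and that of Gadd45b -0.28 (edgeR adjusted p = 0.139). Tested directly, aged minus young RCAM was 1.44, edgeR adjusted p = 0.00379 for Nr4a1, 1.55, edgeR adjusted p = 0.0137 for Dusp2 and 0.67, edgeR adjusted p = 0.0331 for Gadd45b. These genes were named for their fall in young RCAM, whose libraries the direct test shares. Of the 29 members 7 were higher and 0 lower in that test, against 3.43% and 1.38% of all genes.

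Of 21 inflammatory genes tested, 2 (9.52%) were lower in young RCAM and 0 higher, against 5.39% and 8.06% of all genes. With DESeq2, under upper-quartile scaling or with all 4 groups in 1 fit, 4 were lower. Il1b, interleukin 1 beta, read 40.6, 45.05, 49.4 and 50.3 CPM in capsule macrophages and 18.1, 20.98, 29.4 and 24.2 CPM in young RCAM (-0.998 ± 0.15, edgeR adjusted p = 0.00256). All young RCAM libraries were below all capsule macrophage libraries, and in aged RCAM the log2 fold change was 0.16 (edgeR adjusted p = 0.465), with aged minus young RCAM at 1.16, edgeR adjusted p = 0.0056. Nfkbia, the inhibitor of NF-kB and one of its first target genes, read 286, 253, 328 and 343 CPM against 184, 178, 178 and 185 CPM (-0.74 ± 0.10, edgeR adjusted p = 0.00146), with -0.24 (edgeR adjusted p = 0.186) in aged RCAM. Both calls held without each library and under the GC and length correction. The 250 bases before the start of Nfkbia hold 1 NF-kB-type match (GGGNNNTTCC on either strand, capitals below), as do 7 of the 15 inflammatory genes with a RefSeq promoter and 4.65% of all promoters. The stretch lies at chr12:55492648-55492747, minus strand.
Nfkbia: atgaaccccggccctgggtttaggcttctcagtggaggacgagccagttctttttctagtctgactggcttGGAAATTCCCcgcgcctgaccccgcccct

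Heat shock genes gave no firm call. Of 19 tested 1 was higher and 4 lower, against 8.06% and 5.39% of all genes. Of the 5 calls 0 held under the GC and length correction, and 0 held in every fit that leaves out 1 library. Over those fits 0 to 3 members were lower. Hspa1b, an inducible HSP70, read 335, 483, 106 and 293 CPM in capsule macrophages and 64.5, 139, 124 and 146 CPM in young RCAM (-1.36 ± 0.39, edgeR adjusted p = 0.0448), with capsule macrophages 3 inside the range of young RCAM. Its near-identical neighbour Hspa1a, with which it can share reads, read 158, 195, 67.7 and 145 CPM against 40.3, 75.5, 80.5 and 84.9 CPM (-1.01 ± 0.31, edgeR adjusted p = 0.0539). Without capsule macrophages 3 Hspa1a was called (edgeR adjusted p = 0.0155), and Hspa1b kept its call in no other fit that leaves out 1 library (edgeR adjusted p = 0.0743 to 0.103).

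Genes of the unfolded protein response, a list of chaperones of the endoplasmic reticulum and of stress-response regulators, were split. Of 16 tested 2 were higher and 3 lower, against 8.06% and 5.39% of all genes. Hsp90b1, the chaperone GRP94, rose (0.49 ± 0.08, edgeR adjusted p = 0.00473), as did Pdia4, a disulfide isomerase (0.42 ± 0.09, edgeR adjusted p = 0.0121). Sdf2l1 (-0.40 ± 0.07, edgeR adjusted p = 0.00705) and Creld2 (-0.51 ± 0.10, edgeR adjusted p = 0.00978), both induced by unfolded protein, were lower. Under the GC and length correction the 2 rises held and 0 of the 3 falls, with Sdf2l1 (-0.07, edgeR adjusted p = 0.62) and Creld2 (-0.25, edgeR adjusted p = 0.119) not called.

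Several markers of dendritic cells and of monocytes were lower in young RCAM. In bulk RNA, fewer cells of a type and less RNA per cell cannot be told apart. Of 12 tested dendritic markers 5 were lower and 0 higher, against 5.39% and 8.06% of all genes. The summed level was 924, 735, 1104 and 1020 CPM in capsule macrophages and 573, 527, 598 and 593 CPM in young RCAM, without overlap. Xcr1, the chemokine receptor of conventional dendritic cells of type 1, read 50.9, 18.9, 36.4 and 36.1 CPM against 14.3, 18.1, 16.6 and 14.96 CPM (-1.15 ± 0.24, edgeR adjusted p = 0.0129). Flt3, the growth factor receptor of dendritic cells, read 56.9, 28.5, 46.9 and 54.7 CPM against 26.6, 24.8, 26.3 and 21.8 CPM (-0.91 ± 0.19, edgeR adjusted p = 0.0127).

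Cd209a, a lectin of monocyte-derived and type 2 dendritic cells, read 409, 372, 636 and 499 CPM in capsule macrophages and 277, 238, 249 and 296 CPM in young RCAM (-0.85 ± 0.15, edgeR adjusted p = 0.00653), and Itgae, the integrin CD103, fell (-1.36 ± 0.28, edgeR adjusted p = 0.0124). All 4 kept their calls without each library and under the GC and length correction, and 5 to 7 members were lower over the fits that leave out 1 library. In aged RCAM the log2 fold changes over the same capsule macrophages were -0.48 (edgeR adjusted p = 0.358) for Xcr1, -0.46 (edgeR adjusted p = 0.202) for Flt3, -0.65 (edgeR adjusted p = 0.0221) for Cd209a and -0.69 (edgeR adjusted p = 0.0452) for Itgae. Dendritic cells carry much class II. As in the class II list, capsule macrophages 2 had the lowest summed dendritic level of its group, and the part of dendritic RNA in the class II difference was not tested.

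Of 12 monocyte markers 4 were lower (7 with DESeq2) and 1 higher, against 5.39% and 8.06% of all genes. Treml4, a receptor of patrolling monocytes and of some macrophages, read 42.7, 45.8, 56.05 and 36.2 CPM in capsule macrophages and 18.8, 8.22, 10.7 and 10.03 CPM in young RCAM. It was among the 12 largest falls (-1.92 ± 0.24, edgeR adjusted p = 0.00138). Ace, the angiotensin-converting enzyme, a marker of patrolling monocytes, read 20.9, 33.5, 35.7 and 25.3 CPM against 14.2, 7.999, 6.92 and 6.73 CPM (-1.68 ± 0.27, edgeR adjusted p = 0.00364), and Plac8, found in monocytes and granulocytes, fell (-1.27 ± 0.16, edgeR adjusted p = 0.00134). These 3 calls held without each library and under the GC and length correction. The summed level of the list nevertheless overlapped, with 775, 775, 946 and 673 CPM in capsule macrophages and 760.3, 935, 773 and 638 CPM in young RCAM. In aged RCAM the log2 fold changes were -0.81 (edgeR adjusted p = 0.0634) for Treml4, -0.26 (edgeR adjusted p = 0.6) for Ace and -0.66 (edgeR adjusted p = 0.0508) for Plac8.

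Of 13 T and NK cell markers tested 1 was higher and 2 lower, against 8.06% and 5.39% of all genes. Their summed CPM was low, at 61.5, 58.6, 80.4 and 67.98 in capsule macrophages and 90.5, 93, 75.7 and 67.1 in young RCAM. Prf1, perforin, the pore protein of cytotoxic lymphocytes, had 335 counts over the 4 capsule macrophage libraries (0.332, 1.77, 4.24 and 1.08 CPM) and 0 in all 4 young RCAM libraries. Set against a floor of 3 counts over the group, it was at least 124-fold lower in young RCAM (edgeR adjusted p = 0.00572). Cd4, which macrophages can express too, went the other way and read 14.7, 9.66, 18.96 and 21.03 CPM in capsule macrophages and 43.8, 26.7, 38.9 and 33.9 CPM in young RCAM (1.15 ± 0.23, edgeR adjusted p = 0.0109). B and plasma cell markers summed to more, 1372, 1493, 1438 and 1388 CPM in capsule macrophages and 1273, 1099, 1134 and 1250 CPM in young RCAM, without overlap. Most of this was Ighm, the heavy chain of immunoglobulin M, at 1249, 1333, 1262 and 1250 CPM against 1224, 993, 967 and 1136 CPM, which was not called (-0.24 ± 0.08, edgeR adjusted p = 0.0848) except without young RCAM 1 (edgeR adjusted p = 0.0394), under upper-quartile scaling (0.0265) and with DESeq2 (adjusted p = 0.0358). Of 7 members tested 1 was higher and 0 lower, against 8.06% and 5.39% of all genes.

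Fibroblast and matrix genes were lower in part, while their summed level overlapped. Of 30 tested 2 were higher and 7 lower, against 8.06% and 5.39% of all genes, with a median of -0.39. The lower count was 2 with all 4 groups in 1 fit and 4 without young RCAM 2 or 4, and the higher count was 0 without capsule macrophages 3 or young RCAM 1. The summed level was 1184, 1074, 1367 and 1587 CPM in capsule macrophages and 1107, 940.2, 1247 and 1196 CPM in young RCAM. Col3a1, a fibrillar collagen, read 118, 154, 218 and 208 CPM against 200.4, 187, 247 and 231 CPM (0.31 ± 0.18, edgeR adjusted p = 0.296), and Col1a1, the main fibrillar collagen, 62.1, 74.2, 99.4 and 118 against 65.9, 47.8, 63.5 and 92.3 CPM (-0.39 ± 0.22, edgeR adjusted p = 0.293). Dcn, the matrix proteoglycan decorin, read 289.5, 169.5, 248 and 302 CPM in capsule macrophages and 178, 133, 216 and 181 CPM in young RCAM and was not called (-0.51 ± 0.19, edgeR adjusted p = 0.0983), except without capsule macrophages 2 (edgeR adjusted p = 0.0181) and under the GC and length correction (-0.81, edgeR adjusted p = 0.0359).

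Among the called members, Fbln2, fibulin 2, read 24.9, 29.99, 21.5 and 28.4 CPM in capsule macrophages and 11.5, 17.6, 15.3 and 15.2 CPM in young RCAM (-0.81 ± 0.16, edgeR adjusted p = 0.00854), and Bgn, biglycan, 13.8, 16.1, 14.8 and 20.6 against 9.43, 10.9, 10.8 and 8.05 CPM (-0.74 ± 0.17, edgeR adjusted p = 0.0172). Both kept their calls without each library and under the GC and length correction. Loxl1, a collagen cross-linking enzyme, fell (-1.08 ± 0.21, edgeR adjusted p = 0.00936) and was not called under that correction (-0.77, edgeR adjusted p = 0.0557). In aged RCAM 18 of 30 members were higher than in the same capsule macrophages and 0 lower, against 9.63% and 6.25% of all genes. Dcn read 553, 458, 999 and 772 CPM in aged RCAM.

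RNA of blood and of kidney tubules followed single libraries. Haemoglobin and platelet genes had summed levels of 343, 277, 198 and 207 CPM in capsule macrophages and 325, 34.2, 11.2 and 8.22 CPM in young RCAM, where young RCAM 1 lay with the capsule macrophages and the other three far below. Of 11 members edgeR called 0 (0 also at an unadjusted p under 0.05), and 8 were lower without young RCAM 1. Hba-a1, a haemoglobin alpha chain, read 45.6, 28.5, 21.9 and 30.7 CPM against 39.8, 3.91, 1.58 and 0.599 CPM (-1.46 ± 0.97, edgeR adjusted p = 0.368, and 0.0053 without young RCAM 1). Nephron markers summed to 171, 31.8, 31.8 and 20.3 CPM in capsule macrophages and 76.3, 215, 124 and 107 CPM in young RCAM. Of 15 tested 1 (6.67%) was called higher, near the 8.06% of all genes. Without capsule macrophages 1, the highest of its group, 6 were higher, among them Slc34a1, a phosphate transporter of proximal tubule cells (1.91 ± 0.70, edgeR adjusted p = 0.101 with all libraries, 0.00408 without it). The part of such RNA in other results was not tested.

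A few single genes of other lists were called, where 8.06% of all genes were higher and 5.39% lower. Ccl8, a chemokine of resident macrophages, read 306, 232, 267 and 302 CPM in capsule macrophages and 403, 485, 501 and 503 CPM in young RCAM (0.77 ± 0.11, edgeR adjusted p = 0.00177), one of 14 further chemokines tested (1 higher, 1 lower). Cd9, a tetraspanin, was lower (-0.92 ± 0.18, edgeR adjusted p = 0.00932), the only call (1 of 10) in a list of lipid-associated macrophage genes. Pdk1, a kinase that restrains pyruvate oxidation, rose (0.83 ± 0.14, edgeR adjusted p = 0.00539), the 1 rise among 16 hypoxia and glycolysis genes. Of these 3 were lower, but 0 to 2 in the fits that leave out 1 library. Txnrd1, thioredoxin reductase, rose (0.35 ± 0.07, edgeR adjusted p = 0.0114) and Mt1, a metallothionein, fell (-0.42 ± 0.09, edgeR adjusted p = 0.0118), the calls among 13 oxidative and metal stress genes (4 lower with DESeq2 or all 4 groups in 1 fit, 3 under upper-quartile scaling). Mt1 was not called under the GC and length correction (-0.20, edgeR adjusted p = 0.217), whereas Ccl8, Cd9, Pdk1 and Txnrd1 kept their calls without each library and under the GC and length correction.

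The largest falls among genes with a named symbol, a mean log2 CPM of at least 3 and no overlap were led by Lars2 and Fgfr2. Lars2, the mitochondrial leucyl-tRNA synthetase (chr9:123366927-123462666), read 1269, 948, 916 and 1156 CPM in capsule macrophages and 149, 196, 169 and 177 CPM in young RCAM. The groups lay far apart (-2.64 ± 0.13, edgeR adjusted p = 1.13e-05). Fgfr2, a fibroblast growth factor receptor of epithelia (chr7:130162451-133123350), read 669, 464, 419.9 and 571 CPM against 87.9, 105, 98.4 and 102 CPM (-2.43 ± 0.14, edgeR adjusted p = 3.10e-05). Cntnap5b, a neuronal cell adhesion gene, read 150.4, 112, 109 and 134 CPM against 19.6, 31.3, 22.5 and 24.1 CPM (-2.37 ± 0.16, edgeR adjusted p = 3.91e-05).

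Gphn, which encodes the scaffold protein gephyrin, fell (-1.99 ± 0.14, edgeR adjusted p = 4.46e-05), as did Il1rapl1, a synaptic receptor gene (-2.05 ± 0.12, edgeR adjusted p = 3.10e-05). Mir6236, annotated as a microRNA gene (-1.83 ± 0.12, edgeR adjusted p = 3.91e-05), and Tmtc2, a gene of the endoplasmic reticulum (-1.82 ± 0.14, edgeR adjusted p = 9.04e-05), were lower too. These 7 genes are among the 12 that were past a 2-fold difference in the test against it, and all 7 kept their calls without each library and under the GC and length correction. Within each of the 8 libraries the level of Fgfr2 was 0.459 to 0.589 of that of Lars2, that of Cntnap5b 0.116 to 0.16, that of Il1rapl1 0.0657 to 0.108, that of Gphn 0.259 to 0.458, that of Mir6236 0.0842 to 0.157 and that of Tmtc2 0.0299 to 0.0693. The first 2 ratios were thus steadier than the other four. Of 9051 genes compared over the 16 RCAM, capsule and kidney macrophage libraries, the levels of Fgfr2 (r = 0.997), Gm26561 (0.995), Cntnap5b (0.992), Gm15564 (0.992) and Gphn (0.991) followed Lars2 most closely. Gm15564 (-2.49) and Gm26561 (-2.36) fell as well. The genes lie on several chromosomes, and whether they share reads was not tested. Nor was it tested whether the reads come from transcripts of these genes, so the functions given are those of the annotated genes. Lars2 was also low in aged RCAM, at 219, 193, 167 and 204 CPM, and between the 2 in kidney macrophages, at 572, 511, 528 and 699 CPM, so that it separated all 8 RCAM libraries from all 8 capsule and kidney macrophage libraries.

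The 12 largest falls also held Tbc1d10c, Pglyrp1 and Chst13. Tbc1d10c, an inhibitor of RAS and calcineurin in lymphocytes, read 24.7, 22.4, 29.8 and 13.3 CPM in capsule macrophages and 6.16, 4.6, 4.04 and 8.05 CPM in young RCAM (-1.98 ± 0.28, edgeR adjusted p = 0.00203). Pglyrp1, a peptidoglycan recognition protein of granulocytes, fell (-1.84 ± 0.31, edgeR adjusted p = 0.00464), and both kept their calls without each library and under the GC and length correction. Chst13, a sulfotransferase, fell (-1.69 ± 0.39, edgeR adjusted p = 0.0189), but not without young RCAM 1, 2 or 3 (edgeR adjusted p = 0.0528 to 0.0566) or under the GC and length correction (-1.33, edgeR adjusted p = 0.0643). Its highest value came from 1 library, capsule macrophages 3, with 10.4, 10.8, 35.1 and 11.3 CPM in capsule macrophages and 4.75, 4.5, 5.09 and 6.65 CPM in young RCAM.

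On the higher side, 11 of the 12 largest rises, all but Abca1, belonged to none of the lists. Tnfsf10, the death ligand TRAIL, read 8.24, 10.4, 2.78 and 6.4 CPM in capsule macrophages and 35.8, 14.04, 23.7 and 21.3 CPM in young RCAM (1.77 ± 0.38, edgeR adjusted p = 0.0137). Edem3, which marks misfolded glycoproteins for degradation, read 17.1, 29.7, 16.6 and 26.7 CPM against 56.9, 50.1, 66.99 and 61.2 CPM (1.39 ± 0.19, edgeR adjusted p = 0.00197). Pank3, a pantothenate kinase of coenzyme A synthesis, rose (1.36 ± 0.15, edgeR adjusted p = 0.000688), as did C1galt1, which builds O-linked glycans (1.33 ± 0.17, edgeR adjusted p = 0.0014), and Cpeb4, a regulator of translation (1.33 ± 0.20, edgeR adjusted p = 0.00245). Ccdc50, an adaptor of ubiquitin signalling, had closely spaced values, 90.8, 104, 99.7 and 103 CPM in capsule macrophages and 222, 243, 244 and 226 CPM in young RCAM (1.23 ± 0.07, edgeR adjusted p = 3.10e-05). These 6 genes, and Pdpr (1.25 ± 0.24, edgeR adjusted p = 0.00916), Atad2 (1.25 ± 0.16, edgeR adjusted p = 0.00135) and Tmtc3 (1.22 ± 0.21, edgeR adjusted p = 0.00571), kept their calls without each library and under the GC and length correction. Slc16a12, a monocarboxylate transporter, and Zbtb6, a zinc finger gene, did not under that correction (1.29, edgeR adjusted p = 0.0542, and 1.09, edgeR adjusted p = 0.113), and Zbtb6 kept its call in 1 of the 8 fits that leave out a library, Slc16a12 in 5.

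Differences followed the composition of the transcripts. Over 8411 protein-coding genes above the level used for naming (a mean log2 CPM of 3), the log2 fold change correlated with the GC content of the longest transcript at r = -0.458 and with its log2 length at r = 0.377, across genes that share the 8 libraries. In the lowest of 5 equal bins of GC content 29% were called higher and 1.6% lower, and in the highest bin 1.49% and 20.2%. Of the bin of shortest transcripts 1.84% were higher and 15.7% lower, and of the longest 26.9% and 2.85%. The longest transcript of Edem3 has 43.5% GC and 6327 bases and that of Mrc1 43.4% GC and 5374 bases, against 67.2% GC and 1668 bases for Jund and 58.1% GC and 968 bases for Ftl1.

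After a correction that removes both trends from each library (r = 0.0033 and 0.026), 662 genes were called higher and 449 lower, and 822 of the 2030 calls remained, all in the same direction. Against 5.39% lower and 8.06% higher of all genes, 17 of 88 nuclear genes of oxidative phosphorylation were lower and 0 higher. Of 78 ribosomal protein genes 6 were lower and 0 higher. The first count was 6 to 11 without capsule macrophages 1 or 3 or young RCAM 1, 3 or 4, 29 under upper-quartile scaling and 30 with DESeq2. The second was 3 without each of the same 5 libraries, 11 without capsule macrophages 2, 13 under upper-quartile scaling or with all 4 groups in 1 fit, and 15 with DESeq2. Ndufa7, a subunit of complex I (-0.47 ± 0.09, edgeR adjusted p = 0.00663), and Rps9, a protein of the small ribosomal subunit (-0.44 ± 0.09, edgeR adjusted p = 0.00939), kept their calls without each library and under the correction. After the correction these counts were 7 lower with 2 higher and 4 lower with 0 higher. Ribosomal protein genes took 0.11 to 0.14% of counts in capsule macrophages and 0.084 to 0.104% in young RCAM, and genes encoded in mitochondrial DNA 0.153 to 0.182% and 0.0883 to 0.162%. Whether composition reflects the cells or the making of the libraries was not tested.

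**Figure D5:**
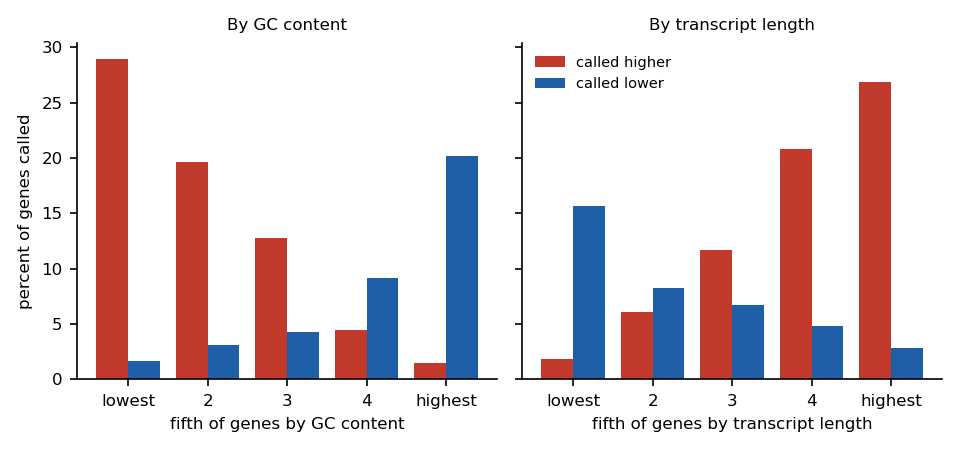
Percent of genes called higher (red) or lower (blue) in young RCAM in each of 5 equal bins of 8411 protein-coding genes by GC content (left) and by length (right) of the longest transcript. Calls of higher genes fall from 29% to 1.49% from the lowest to the highest GC bin, and calls of lower genes rise from 1.6% to 20.2%.

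The 8 RCAM libraries, young and aged, all lay above the 8 capsule and kidney macrophage libraries for 528 of 16701 genes (3.16%) and below them for 268 (1.6%), as a description without a test. Of the genes called in young RCAM, 435 higher and 185 lower ones were among these. Age, tissue and preparation all differ across these 16 libraries, so these genes mark the titled sets and not one of those factors. The 4 tested genes on the Y chromosome were not among these, though 2 of them were called higher in young RCAM, against 8.06% of all genes. The summed CPM of these genes and Xist was 101 to 125 for capsule macrophages, 130.4 to 188 for young RCAM and 229.9 to 269 for kidney macrophages, the highest of the 3 groups. Ddx3y, an RNA helicase, read 42.04, 40.7, 32.9 and 30.6 CPM in capsule macrophages and 60.2, 48.95, 79.8 and 58.5 CPM in young RCAM (0.76 ± 0.16, edgeR adjusted p = 0.0121), and Uty, a histone demethylase, 17.4, 21.1, 19.4 and 19.04 against 31.6, 31.1, 38.96 and 36.1 CPM (0.84 ± 0.11, edgeR adjusted p = 0.00162). Eif2s3y (-0.19 ± 0.12, edgeR adjusted p = 0.317) and Kdm5d (0.60 ± 0.26, edgeR adjusted p = 0.166) were not called, and Ddx3y was not under the GC and length correction (0.47, edgeR adjusted p = 0.0785). Xist, the RNA of the inactive X chromosome, had 0 counts over all 8 libraries, as had B2m and other genes named above. Whether the 0 of Xist reflects the cells or the counting of reads was not tested.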

How the data were processed

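Bulk RNA was sequenced from 22 mouse samples, and the 8 libraries compared here were grouped by their titles. The deposited files give a whole-number read count per gene and, beside it, RPKM values that the authors computed, which were not used. Reads were counted on GRCm38, per the submitters' processing notes; aligner and counter: not given in the sources used here. The labels' protocols describe both a regular library kit with 100 ng and a low-input kit with 2 ng of RNA, with single-end reads of 50 bases, and do not say which libraries used which. If counting ignored strand, overlapping genes cannot be told apart. Of 52636 gene IDs, 52489 were matched to GENCODE M21.

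Counts were tested with edgeR 4.0.16 (limma 3.58.1, R 4.3.3): TMM scaling, filterByExpr, quasi-likelihood F test, Benjamini-Hochberg adjustment over 15090 genes, threshold 0.05, 4 libraries against 4. A difference past 2-fold was tested with glmTreat, and agreement was read from 95% intervals. DESeq2 1.42.0 and limma-voom were alternatives, with other scalings and filters, a replicate block, aged RCAM and kidney macrophages added to the fit and each library left out. The GC and length correction, a smooth of log2 CPM on both properties of the longest transcript in each library, was added after seeing the data. The tests were checked on simulated data.

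The members and the 43 gene lists were chosen with earlier results of these data known. Genes named are the 12 largest called changes in each direction (mean log2 CPM of at least 3, no overlap, named symbol), the 12 of highest level within 1.5-fold, up to 4 members of smallest p in each list described, and a fixed set. Some genes that this rule gives are not reported here. Promoter sequences are from RefSeq (GRCm38.p6).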

Additional observations from a re-analysis of the deposited data

Results flagged for a closer look

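In 11 of 320 groups of 4 libraries examined for the genes and list sums in the text, the highest or lowest library lay apart from the others by Dixon's criterion, where chance gives about 1 in 20 (16). Among capsule macrophages, the highest library read 35.1 CPM for Chst13 (the next 11.3), 36.7 CPM for Slc34a1 (next 6.35), 1333 CPM for Ighm (next 1262) and 401 CPM for Timd4 (next 327), and the summed nephron and endothelial markers reached 171 CPM (next 31.8) and 146 CPM (next 113). The lowest read 4875 CPM for Psap, with the next at 5748. Among young RCAM, the highest library read 14.2 CPM for Ace (next 7.999), 6.30 CPM for Dusp2 (next 3.64) and 39.8 CPM for Hba-a1 (next 3.91), and summed haemoglobin and platelet genes reached 325 CPM (next 34.2).

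For 19 of 108 genes looked at, aged and young RCAM differed from the same capsule macrophages to a different extent. This was tested as aged against young RCAM with edgeR over all genes, and the log2 difference (aged minus young) is given with its adjusted p. Matrix genes were higher in aged RCAM, Fbln2 by 2.63 (edgeR adjusted p = 0.00109), Bgn by 2.56 (0.00268), Loxl1 by 2.30 (0.00266) and Dcn by 1.92 (0.00246). Stress and inflammatory genes were higher too, Dusp2 by 1.55 (edgeR adjusted p = 0.0137), Nr4a1 by 1.44 (0.00379), Il1b by 1.16 (0.0056), Gadd45b by 0.67 (0.0331) and Nfkbia by 0.50 (0.00945), as were Ace by 1.42 (0.0447), Cd9 by 1.04 (0.0173) and Ftl1 by 0.30 (0.0331). Resident macrophage genes were lower in aged RCAM, with Retnla at -1.30 (edgeR adjusted p = 0.0022), Timd4 at -1.09 (0.0398), Colec12 at -0.85 (0.0455), Cd163 at -0.76 (0.0128) and Folr2 at -0.76 (0.0345), and so were the interferon-induced Iigp1 at -0.75 (0.0256) and Gbp3 at -0.67 (0.00276). The aged-young contrast uses no capsule macrophage library, but it shares the young RCAM libraries with the main comparison. Of all 15182 genes tested in it 4.8% were called. Many of the 108 genes were named for their difference in young RCAM, so the choice of genes favoured a difference back in aged RCAM.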

How the results depend on the processing

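Against 1216 genes higher and 814 lower, DESeq2 gave 1795 and 1316, and the GC and length correction 662 and 449. Leaving out 1 library gave 825 to 1301 higher and 406 to 806 lower genes; the lower count fell by over 1.5 times without capsule macrophages 1 (487), 3 (468) or 4 (520) or young RCAM 2 (525), 3 (406) or 4 (462). The test past 2-fold gave 4 genes higher with all 4 groups in 1 fit, and 0 to 5 higher and 9 to 13 lower with a library left out; the 5 came without capsule macrophages 1. Under the GC and length correction the log2 fold changes of Apoe (0.017), Fcer1g (0.014), Ftl1 (0.024), Ndufs7 (0.0064) and Spi1 (0.0088), all lower without it, had the opposite sign, with an edgeR adjusted p of 0.905 to 0.971. Of the genes the naming rule gives, 161 kept their side of the threshold under this correction, and their direction where called. The same held for 173 with the replicate block, 190 with DESeq2, 206 with limma-voom and 215 with the scaling of DESeq2 inside edgeR. The direction of genes not called in either fit was not compared. The GC and length correction removes by construction what follows GC content and length, biological or not.

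The replicate numbers shared by the 2 groups were not used as pairs. Deviations from the group means of same-numbered libraries correlated at -0.0869, -0.0704, 0.0222 and 0.00634 across genes, and not every library correlated best with its own number. A fit with the replicate block called 718 genes higher and 341 lower, and 6 lower past 2-fold, with fewer residual degrees of freedom. Depth limits calls of genes at a few counts.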
